A study of Homo sapiens with 30 samples.

Results

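The genes described here are 36 classical androgen-induced target genes, chosen by name and looked up by symbol among the 23710 gene symbols that were counted. Kallikreins, TMPRSS2 and FKBP5 were set aside in that choice, and all 36 symbols were found. The study compared V16D, a castration-resistant derivative of the LNCaP prostate cancer line, with MR49F, its enzalutamide-resistant relative. Poly(A) RNA of 30 samples in 10 conditions, with 3 replicates each, was sequenced. V16D and MR49F cells in 10% full serum (FS) received vehicle or 10 μM enzalutamide (also called MDV3100) for 24 hours. MR49F cells kept for 72 hours in 10% charcoal-stripped serum (CSS), which holds little androgen, received vehicle, 1 nM dihydrotestosterone (DHT), 10 μM enzalutamide, 500 nM of the BET bromodomain inhibitor JQ-1, DHT with JQ-1, or enzalutamide with JQ-1 for 24 hours. MR49F cells were maintained with 10 μM enzalutamide, unlike V16D, and per the labels all cells were then grown without it for several days before treatment. Each line is a single derivative, so that a difference between the lines is not tied to any single change.

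Androgens such as DHT activate genes of the prostate epithelium mostly through enhancers, many of them far from the start sites of the genes. Enzalutamide is an antiandrogen that competes with these hormones and blocks their action. BET proteins read acetylated histones and recruit the elongation machinery of RNA polymerase II, and JQ-1 displaces them from chromatin.

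Between 13170504 and 21154962 reads per sample fell on genes in the 12 FS samples, and between 982130 and 1813262 in the 18 CSS samples, where 5.13% to 7.66% of the tallied reads fell on genes against 72.97% to 77.81% in FS. The reads tallied in all, on genes, off genes or ambiguous, ranged from 15813397 to 25971604 per library in CSS and from 16925813 to 27262506 in FS. Genes with an exon on the strand opposite to another gene's exon had more counts than their FPKM (fragments per kilobase of transcript, scaled to sequencing depth) would give in CSS, with 10.5% of 2551 such genes shifted by over 2 on the log2 scale against 1.88% of 7663 others. None of the 35 androgen-induced genes with enough signal shifted by that much, but MED28, LRIG1, GNMT, CENPN and NCAPD3 do overlap a gene on the other strand, so counts of these 5 genes in CSS may hold reads of the other gene. Which strand was counted is not given in the sources used here. It bears on every count, fold change and call in CSS, and its part in them was not tested. Replicate 1 of MR49F FS vehicle stood apart from replicates 2 and 3, at 9.76 and 11.3 in chi-square units per degree of freedom, against 2.23 between the latter. Luminal prostate markers summed to 887 to 1704 FPKM in every sample, the basal markers KRT5, KRT14 and TP63 to at most 0.352, stromal markers to at most 2.68 and leukocyte markers to at most 6.44 FPKM. In these bulk samples fewer expressing cells and less RNA per cell cannot be told apart.

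Starts of the genes were searched for short sequence motifs, the androgen response element among them. RefSeq promoters of build GRCh38.p14 matched 28 of the 36 genes, and the 250 bases upstream of each start were searched on both strands. The full palindromic androgen response element, AGAACA and TGTTCT with 3 bases between them, was in 0 of 28 windows, against 0.00366% of 27305 gene windows. The half-site AGAACA was in 2, STK39 and NEDD4L (7.14% against 12.4% of all windows), the forkhead motif TGTTTAC in 0 (2.98% of all), the TATA box TATAAA in 1, MAF (3.57% against 11.1%), and the CCAAT box in 15 (53.6% against 33.0%). These letters are a description of short windows and say nothing of enhancers farther away. The 5 windows printed here belong to genes on which the results below turn: SPDEF and AZGP1 fell when JQ-1 was added to DHT, C1orf116 and MBOAT2 rose, and STK39 is a member with a half-site. They read 5′ to 3′ on the gene's own strand and end at the base before the start, and capitals mark AGAACA or CCAAT on either strand.
SPDEF (chr6:34556330-34556579, minus strand): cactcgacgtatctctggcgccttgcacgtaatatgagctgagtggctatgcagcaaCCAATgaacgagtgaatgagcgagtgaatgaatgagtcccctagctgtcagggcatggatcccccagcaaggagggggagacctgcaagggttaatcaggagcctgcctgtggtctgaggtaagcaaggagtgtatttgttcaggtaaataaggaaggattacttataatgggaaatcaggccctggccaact
AZGP1 (chr7:99976032-99976281, minus strand): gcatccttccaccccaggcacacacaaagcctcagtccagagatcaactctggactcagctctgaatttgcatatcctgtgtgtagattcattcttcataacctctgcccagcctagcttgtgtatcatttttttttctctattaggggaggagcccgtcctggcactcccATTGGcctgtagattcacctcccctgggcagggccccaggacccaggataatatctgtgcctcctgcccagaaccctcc
C1orf116 (chr1:207032757-207033006, minus strand): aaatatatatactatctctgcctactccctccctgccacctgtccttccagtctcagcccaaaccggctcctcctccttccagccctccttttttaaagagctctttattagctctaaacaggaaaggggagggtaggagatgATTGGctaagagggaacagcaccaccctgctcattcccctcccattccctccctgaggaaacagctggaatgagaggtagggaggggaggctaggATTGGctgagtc
MBOAT2 (chr2:9003685-9003934, minus strand): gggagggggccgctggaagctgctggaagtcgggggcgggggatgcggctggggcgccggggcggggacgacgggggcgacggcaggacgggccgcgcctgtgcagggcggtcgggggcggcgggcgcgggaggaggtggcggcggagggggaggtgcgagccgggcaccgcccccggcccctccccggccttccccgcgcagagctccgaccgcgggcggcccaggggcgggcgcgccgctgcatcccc
STK39 (chr2:168247596-168247845, minus strand): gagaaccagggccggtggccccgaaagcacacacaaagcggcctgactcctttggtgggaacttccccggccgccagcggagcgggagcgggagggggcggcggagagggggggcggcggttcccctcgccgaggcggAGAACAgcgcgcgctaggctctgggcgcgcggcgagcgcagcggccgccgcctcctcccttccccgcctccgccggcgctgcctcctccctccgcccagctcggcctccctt
The CCAAT letters began 193 bases upstream of the start in SPDEF, 79 in AZGP1, and 107 and 12 in C1orf116, and lie on the opposite strand in AZGP1 and C1orf116. STK39 held its half-site 112 bases upstream, and the window of MBOAT2 held neither motif.

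**Figure D1:**
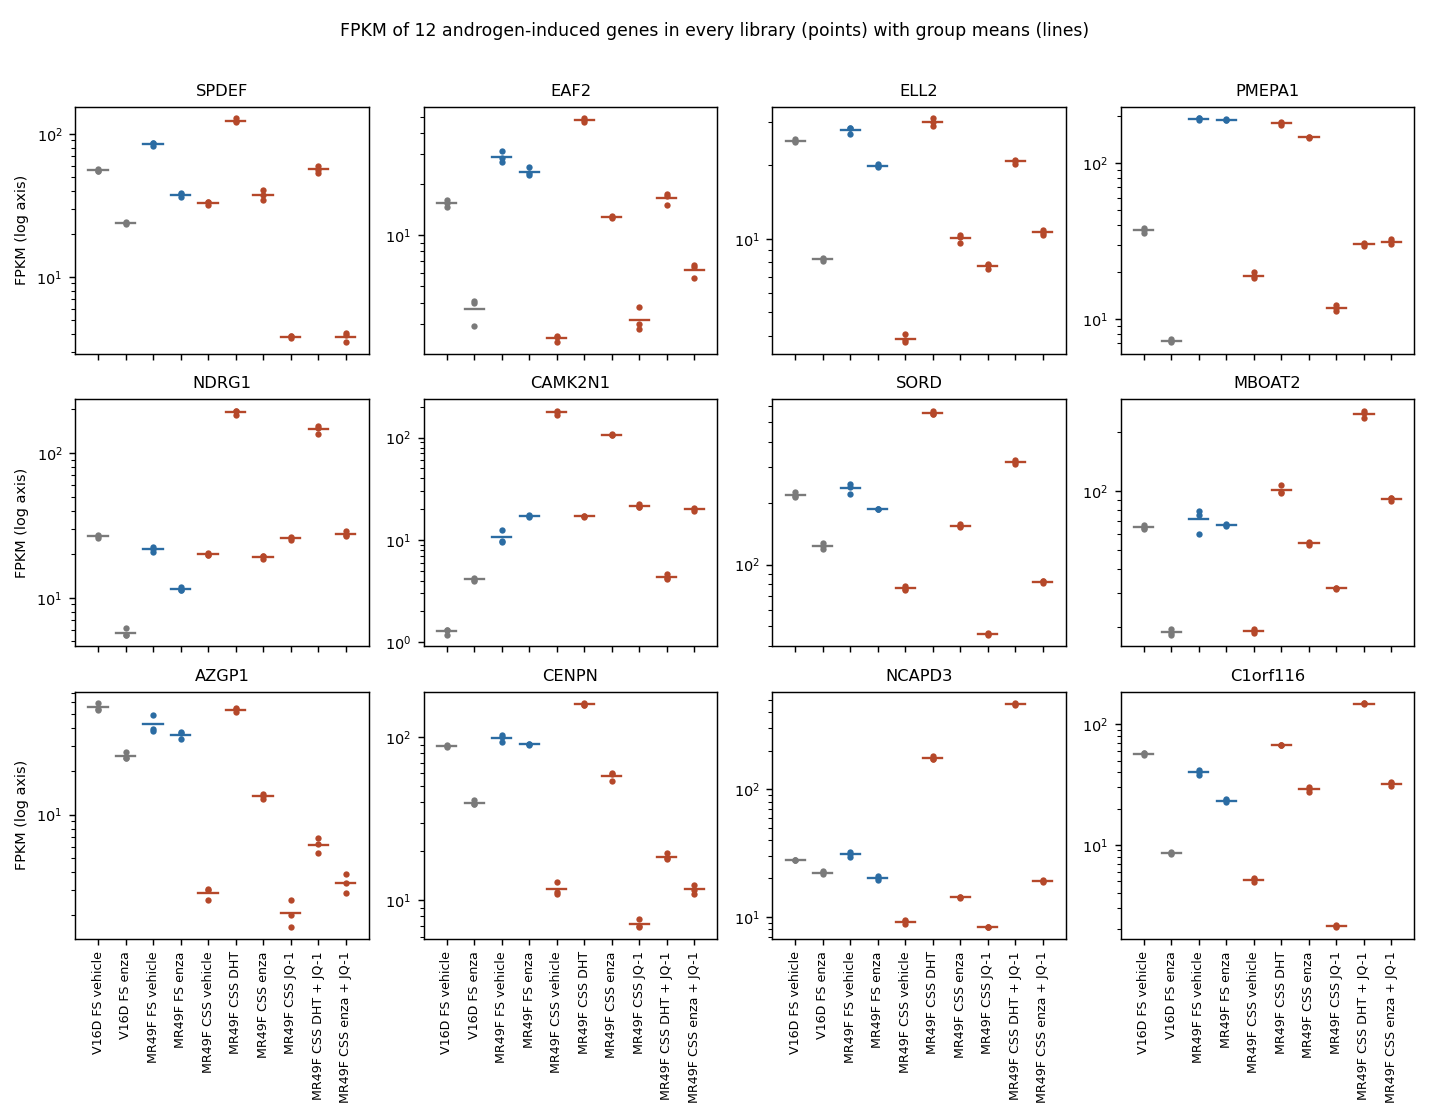
FPKM of 12 of the androgen-induced genes in every library, on a log axis, with a point for each of 3 replicates and a line at their mean; grey is V16D in full serum (FS), blue MR49F in FS and red MR49F in charcoal-stripped serum (CSS). In CSS 11 of the 12 genes are highest with DHT or with DHT and JQ-1, CAMK2N1 is highest with vehicle, and NCAPD3 with DHT and JQ-1 reaches 458 to 473 FPKM.

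The first question was how enzalutamide acted on these genes where androgen was present. In V16D cells in FS, 34 of the 35 genes that passed the filter on low counts changed with enzalutamide at an adjusted p of at most 0.05 in edgeR's quasi-likelihood test, against 37.5% of all 14079 genes tested. Of these, 32 fell and 2 rose, and the median log2 fold change was -1.23 against 0.0038 over all genes. Every tested metabolic enzyme (8 of 8) and every gene of transport, channels and secretion (6 of 6) fell, as did 5 of 6 transcription and elongation factors. MED28, a Mediator subunit, had a log2 fold change of 0.07 (adjusted p = 0.341, edgeR), and HPGD, which degrades prostaglandins, had at most 1 read in any V16D library and was not tested.

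C1orf116, also known as specifically androgen-regulated gene, was at 56.0, 57.9 and 57.6 FPKM with vehicle and at 8.67, 8.62 and 8.33 with enzalutamide. The groups did not overlap, and the log2 fold change of the counts was -2.77 (SE 0.0309). PMEPA1, which binds NEDD4-type ubiquitin ligases and restrains TGF-β signalling, was at 35.6, 38.5 and 37.5 FPKM with vehicle and 7.18, 7.5 and 7.09 with enzalutamide, a log2 fold change of -2.40 (SE 0.0353). NNMT, which methylates nicotinamide, had the largest estimate, -3.22 (SE 0.146, adjusted p = 6.31e-83, edgeR), at a lower level of 5.63, 6.95 and 5.86 FPKM with vehicle and 0.754, 0.530 and 0.688 with enzalutamide. The transcription factor MAF fell from 13.8, 14.2 and 14.5 FPKM to 2.29, 2.24 and 2.15. NDRG1, a stress-responsive gene, fell from 27.3, 25.8 and 26.5 FPKM to 5.56, 6.17 and 5.55, and EAF2, a partner of ELL elongation factors, from 16.1, 14.7 and 15.5 to 3.99, 2.89 and 4.11. The groups did not overlap for any of these genes. CAMK2N1, an inhibitor of CaM kinase II, went the other way, from 1.32, 1.18 and 1.33 FPKM to 4.29, 3.97 and 4.10, a log2 fold change of 1.67 (SE 0.115, adjusted p = 2.35e-41, edgeR). MAPRE2, which binds microtubule plus ends, rose from 3.86, 3.71 and 3.55 FPKM to 4.42, 4.64 and 4.74, a log2 fold change of 0.26 (SE 0.0645, adjusted p = 0.000258, edgeR). The study calls its replicates biological and combined wells in pairs for each, and the labels give them as plated in triplicate. Whether they came from separate cultures is not given, so p-values measure the spread between these samples.

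In MR49F cells in FS the same treatment gave smaller estimates. Of 36 genes tested, 24 passed the test, against 8.48% of 13927 genes. CAMK2N1 rose and 23 fell, with a median log2 fold change over the 36 of -0.33 against 0.0095 over all genes. With limma on log2(FPKM + 1), 15 of 36 passed, against 4.53% of 12496 genes. Without vehicle replicate 1, which stood apart, 30 of 36 passed in edgeR, 2 of them higher, and without enzalutamide replicate 3 the count was 16. SPDEF, an ETS transcription factor of the prostate epithelium, was at 85.7, 86.6 and 82.7 FPKM with vehicle and 36.2, 38.6 and 38.0 with enzalutamide, a log2 fold change of -1.22 (SE 0.049, adjusted p = 8.85e-07, edgeR). The estimates were -1.53 for MAF, -0.95 for NDRG1 and -0.82 for C1orf116, which all passed. PMEPA1 was at 195, 194 and 189 FPKM with vehicle and 189, 190 and 192 with enzalutamide, so that the groups overlapped, and its log2 fold change was -0.06 (adjusted p = 0.426, edgeR). The genes that passed the test in V16D but not in MR49F were PMEPA1, PTGER4, NEDD4L, HERC3, RHOU, GNMT, NNMT, AADAT, MBOAT2, AZGP1 and MAPRE2, and for 5 of them (RHOU, NNMT, MBOAT2, NEDD4L and AZGP1) a fall was called once vehicle replicate 1 was left out, with -0.25, -0.69, -0.23, -0.10 and -0.15. AADAT, a kynurenine and aminoadipate aminotransferase, was then called higher, by 0.15.

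The difference between the lines in the response was tested as an interaction. It passed the test for 30 of 36 genes, against 6.95% of 14471 genes, with 28 more positive in MR49F and a median difference of 1.00 in log2 fold change against -0.0065 over all genes. PMEPA1 differed by 2.33 (SE 0.0577, adjusted p = 2.27e-16), NNMT by 2.68 (SE 0.266, adjusted p = 5.76e-07) and C1orf116 by 1.94 (SE 0.068, adjusted p = 4.9e-14, all edgeR). NCAPD3, a subunit of condensin II, fell more in MR49F (from 29.4, 31.2 and 32.3 to 19.6, 20 and 20.9 FPKM) than in V16D (from 27.9, 28.1 and 28.1 to 22.3, 22.8 and 21.7), a difference of -0.30 (SE 0.0508, adjusted p = 0.000506, edgeR). CAMK2N1 rose less in MR49F, by -1.03 (SE 0.166). The difference did not pass the test for SPDEF (0.02, SE 0.0597), BMPR1B, a BMP receptor (0.03, SE 0.0656), TPD52, a vesicle trafficking protein (0.09, SE 0.0901), MED28 (0.16, SE 0.118), MAPRE2 (-0.27, SE 0.105) or HPGD (1.84, SE 1.39, resting on at most 1 read per V16D library). With each library left out in turn, vehicle replicate 1 of MR49F included, 30 or 31 genes passed.

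With vehicle alone the lines already differed at 30 of these 36 genes, against 63.7% of 14013 genes, with 12 higher and 18 lower in MR49F. PMEPA1 was 2.38 higher on the log2 scale (SE 0.0503) and CAMK2N1 3.06 higher (SE 0.141, 9.62 to 12.4 against 1.18 to 1.33 FPKM). HPGD was at 2.96, 2.75 and 3.10 FPKM in MR49F and at 0.0176, 0 and 0.0169 in V16D. MAF, GNMT, BMPR1B and NNMT were lower in MR49F by -2.37, -2.31, -2.27 and -1.70. GNMT, the glycine N-methyltransferase, overlaps PEX6 by a few bases, and its FPKM went the same way, 2.69 to 3.32 against 14.1 to 16.6. With each library left out in turn, 24 to 32 genes passed.

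**Figure D2:**
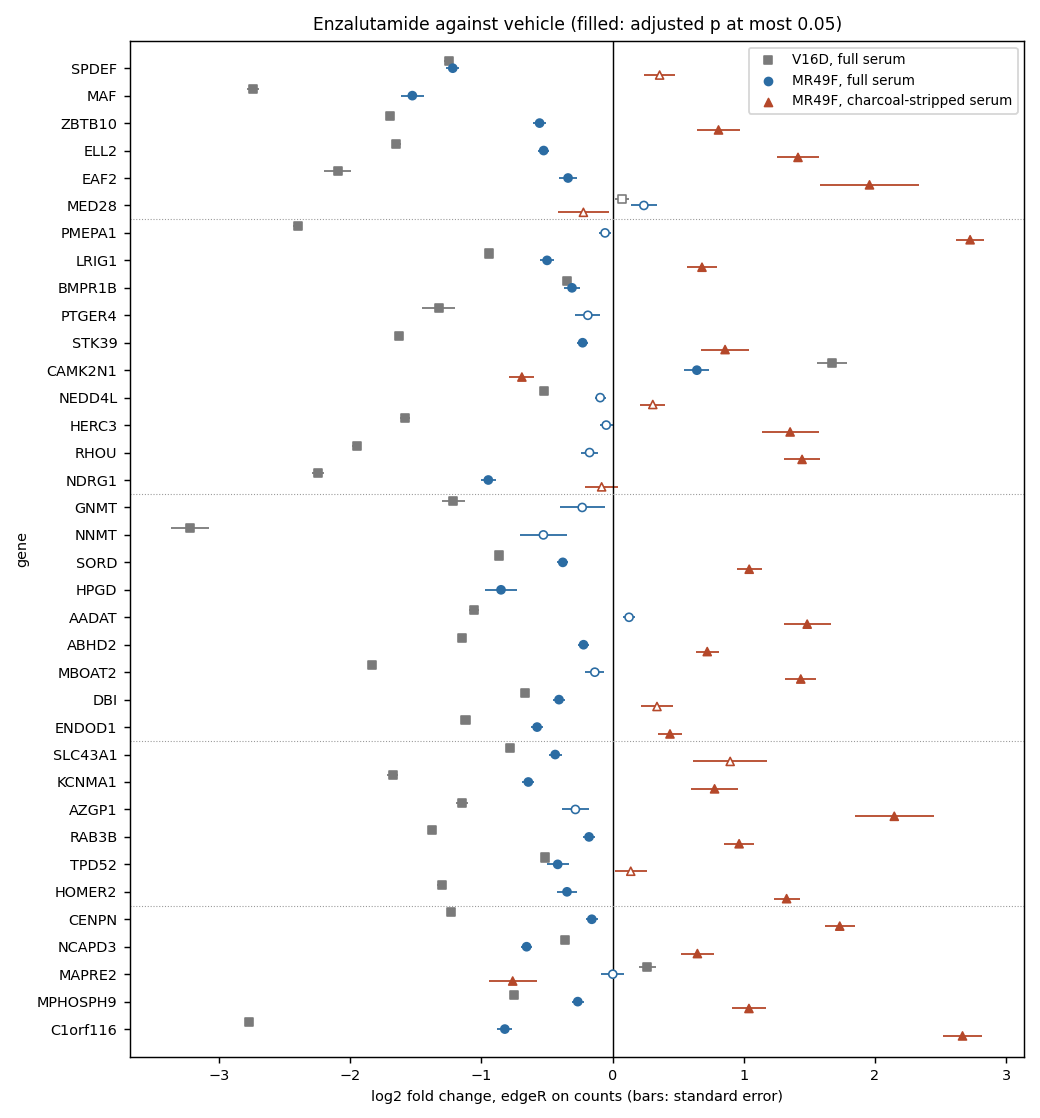
Log2 fold change with enzalutamide against vehicle (x axis, edgeR on counts, bars are standard errors) for each androgen-induced gene (y axis, grouped by role between dotted lines) in V16D in full serum, MR49F in full serum and MR49F in charcoal-stripped serum; filled symbols passed an adjusted p of 0.05. Most genes lie left of 0 in V16D, closer to 0 in MR49F in full serum and right of 0 in charcoal-stripped serum, with CAMK2N1 the other way.

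DHT and enzalutamide were then compared in MR49F cells in CSS, where both treatments share the same 3 vehicle libraries. Before any ligand, 32 of the 36 genes had a lower mean FPKM in CSS vehicle than in FS vehicle, the exceptions being MED28, CAMK2N1, NEDD4L and MAPRE2. Serum and experiment cannot be told apart here, since FS and CSS cells were plated separately and their libraries differ in the share of reads on genes. The filter on low counts can keep a gene that is present in a single group, so counts over the genes that passed are read with that in mind.

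With 1 nM DHT, 33 of 34 tested genes changed, against 37.5% of 11004 genes. Of these 31 rose and 2 fell, with a median log2 fold change of 2.34 against -0.0123 over all genes. All 8 tested metabolic enzymes and all 6 genes of transport, channels and secretion rose, with 5 of 6 transcription and elongation factors, 8 of 9 tested signalling genes and 4 of 5 genes of cell division and cytoskeleton. Among them HPGD, GNMT, AZGP1, EAF2, MAF and PTGER4 had at most 9 reads in any vehicle library. They passed the filter only through the DHT group, so their rise adds little to these counts. MED28 was not called in counts (-0.52, SE 0.216, adjusted p = 0.0632, edgeR), which may hold reads of the overlapping gene. Its FPKM fell without overlap, from 25.2 to 25.8 down to 17.4 to 19.6. Limma on log2(FPKM + 1) called all 36 genes, 33 higher and 3 lower, MED28 among the latter.

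NCAPD3 was at 9.35, 8.87 and 9.38 FPKM with vehicle and at 181, 174 and 173 with DHT. Its counts gave a log2 fold change of 4.47 (SE 0.104, adjusted p = 1.35e-20, edgeR), and its FPKM, which is given because VPS26B and JAM3 lie on the other strand, a difference of 4.12 on the log2(FPKM + 1) scale. AZGP1, the secreted zinc-α2-glycoprotein, went from 3.02, 3.06 and 2.54 FPKM to 51.4, 53.8 and 55.2 (log2 fold change 4.45, SE 0.205, adjusted p = 5.44e-15, edgeR). EAF2 rose from 2.51, 2.55 and 2.33 to 49.0, 46.5 and 47.6 FPKM, and ELL2, the elongation factor it binds, from 3.85, 4.08 and 3.76 to 30.1, 31.3 and 29.0. These 4 genes had no overlap between the groups. AZGP1 had 5 to 9 reads per vehicle library and EAF2 4 to 7, so both passed the filter only through the DHT group.

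C1orf116 rose from 5.31, 4.89 and 5.20 FPKM to 66.8, 67.1 and 67.7 (3.87, SE 0.125), and NDRG1 from 19.8, 19.8 and 20.3 to 183, 195 and 196 (3.31, SE 0.102). HPGD was at 0.586, 0.580 and 0.542 FPKM with vehicle and 7.32, 6.33 and 6.65 with DHT. Its fitted estimate of 4.52 (SE 0.593) rests on 0 or 1 read per vehicle library against 13 to 22 with DHT. It too passed the filter only through the DHT group, and with so few vehicle reads it is not ranked with the others. CENPN, a kinetochore protein whose gene overlaps CMC2, rose from 11 to 13 up to 157 to 162 FPKM, a log2 fold change of 3.16 in counts and 3.66 on the log2(FPKM + 1) scale. Among the enzymes with the highest levels, SORD (sorbitol dehydrogenase) rose from 75.1 to 79.0 up to 545 to 569 FPKM and DBI, which carries acyl-CoA, from 224 to 270 up to 941 to 1108. NEDD4L, a ubiquitin ligase, had the smallest rise that passed, 0.69 (SE 0.0944, 29.0 to 29.2 up to 41.3 to 44.6 FPKM). BMPR1B had too few reads to pass the filter, 0 in all 3 vehicle libraries and 5 to 18 with DHT, at least 3.64-fold higher against a floor of 3 counts per library. NNMT, also too low to test in counts, was at 0.184 to 0.262 FPKM with vehicle and 3.23 to 3.93 with DHT.

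CAMK2N1 and MAPRE2 went against the others again. CAMK2N1 was at 178, 184 and 168 FPKM with vehicle and 16.7, 17.1 and 17.3 with DHT, a log2 fold change of -3.27 (SE 0.114, adjusted p = 2.63e-17, edgeR). MAPRE2 fell from 8.79, 9.12 and 9.03 FPKM to 2.16, 2.03 and 2.41 (-1.77, SE 0.224, adjusted p = 6.83e-07, edgeR). Both genes had risen with enzalutamide in V16D. The summed neuroendocrine markers CHGA, SYP and ENO2 moved with DHT, from 28.1 to 30.3 FPKM down to 9.95 to 10.5, with CHGA below 1 FPKM in every library, and their part in the results was not tested.

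With 10 μM enzalutamide in CSS, 23 of 30 tested genes changed, against 7.26% of 11131 genes. Of these 21 rose and 2 fell, again CAMK2N1 and MAPRE2, and the median log2 fold change was 0.88 against -0.0012 over all genes. PMEPA1 was at 18.3, 19.9 and 18.8 FPKM with vehicle and 148, 147 and 145 with enzalutamide, against 177, 184 and 182 with DHT. Its log2 fold change was 2.72 (SE 0.104, adjusted p = 3.26e-12, edgeR) with enzalutamide. C1orf116 reached 30.1, 29.3 and 27.7 FPKM (2.67, SE 0.146), AZGP1 12.9, 13.5 and 13.9 (2.15, SE 0.299) and EAF2 13.0, 12.7 and 12.6 (1.96, SE 0.379). CENPN reached 59.9, 60.0 and 53.9 FPKM (1.73, SE 0.114). All 5 stayed below their level with DHT in every library. With 5 to 9 and 4 to 7 reads per vehicle library, AZGP1 and EAF2 passed the filter only through the enzalutamide group.

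AADAT was the exception, at 8.90, 8.89 and 9.05 FPKM with vehicle, 16.9, 16.1 and 17.9 with DHT and 23.3, 21.9 and 25.7 with enzalutamide. Enzalutamide was above DHT in every library, but the difference was not called in counts (DHT minus enzalutamide -0.30, SE 0.156, adjusted p = 0.193, edgeR), whereas limma on log2(FPKM + 1) gave -0.46 with an adjusted p of 0.000503. NDRG1 was the reverse case. It was at 18.6, 19.4 and 19.3 FPKM with enzalutamide, just below the 19.8 to 20.3 with vehicle (log2 fold change -0.08, SE 0.128, adjusted p = 0.78, edgeR), although DHT raised it to 183 to 196. SPDEF (0.36, adjusted p = 0.0807), TPD52 (0.14, adjusted p = 0.575), DBI (0.34, adjusted p = 0.111), SLC43A1, an amino acid transporter (0.90, adjusted p = 0.0627), and NEDD4L (0.31, adjusted p = 0.0559, all edgeR) were also not called with enzalutamide in counts. Limma on log2(FPKM + 1) called these 5 genes higher, with adjusted p of 0.0429, 0.0448, 0.00598, 6.91e-05 and 0.0025 in that order, but not NDRG1 (-0.06, adjusted p = 0.307). CAMK2N1 was at 106, 106 and 109 FPKM (-0.69, SE 0.0954) and MAPRE2 at 5.46, 5.76 and 5.47 (-0.76, SE 0.182), the latter no longer called without replicate 1 of either group.

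Mean FPKM went in the order vehicle, enzalutamide, DHT for 31 of the 36 genes, the exceptions being MED28, CAMK2N1, NDRG1, AADAT and MAPRE2. For the 33 genes with a higher mean with DHT, the rise with enzalutamide was a median 28.0% of the rise with DHT, with quartiles of 15.5% and 38.4%. It was lowest for NDRG1 (-0.499%), MAF (2.18%), NCAPD3 (2.99%), TPD52 (4.96%) and SPDEF (5.07%), and highest for AADAT (184%), PMEPA1 (79.0%) and RAB3B, a GTPase of secretory vesicles (74.8%). In a test of the ligands against each other, 31 of 34 genes passed, against 19.4% of 10916 genes. With DHT 29 were higher and 2 lower, with a median difference of 1.33. Of those higher, MAF, PTGER4, GNMT and HPGD had at most 14 reads in any enzalutamide library. They passed the filter only through the DHT group and add little to the count. The call of PTGER4 was lost in 4 of 6 fits with a library left out, and those of NEDD4L and MAPRE2 in 1 each. NCAPD3 differed by 3.82 (SE 0.098), NDRG1 by 3.39 (SE 0.109) and PMEPA1 by 0.43 (SE 0.0794, adjusted p = 0.000567, edgeR), while RAB3B (0.24, SE 0.104) and MED28 (-0.30, SE 0.213) were not called in counts but were by limma on log2(FPKM + 1) (0.20 and -0.39, adjusted p = 0.0177 and 0.00213). The ligands were used at a single concentration each, 1 nM and 10 μM, so these values compare the treatments as given.

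**Figure D3:**
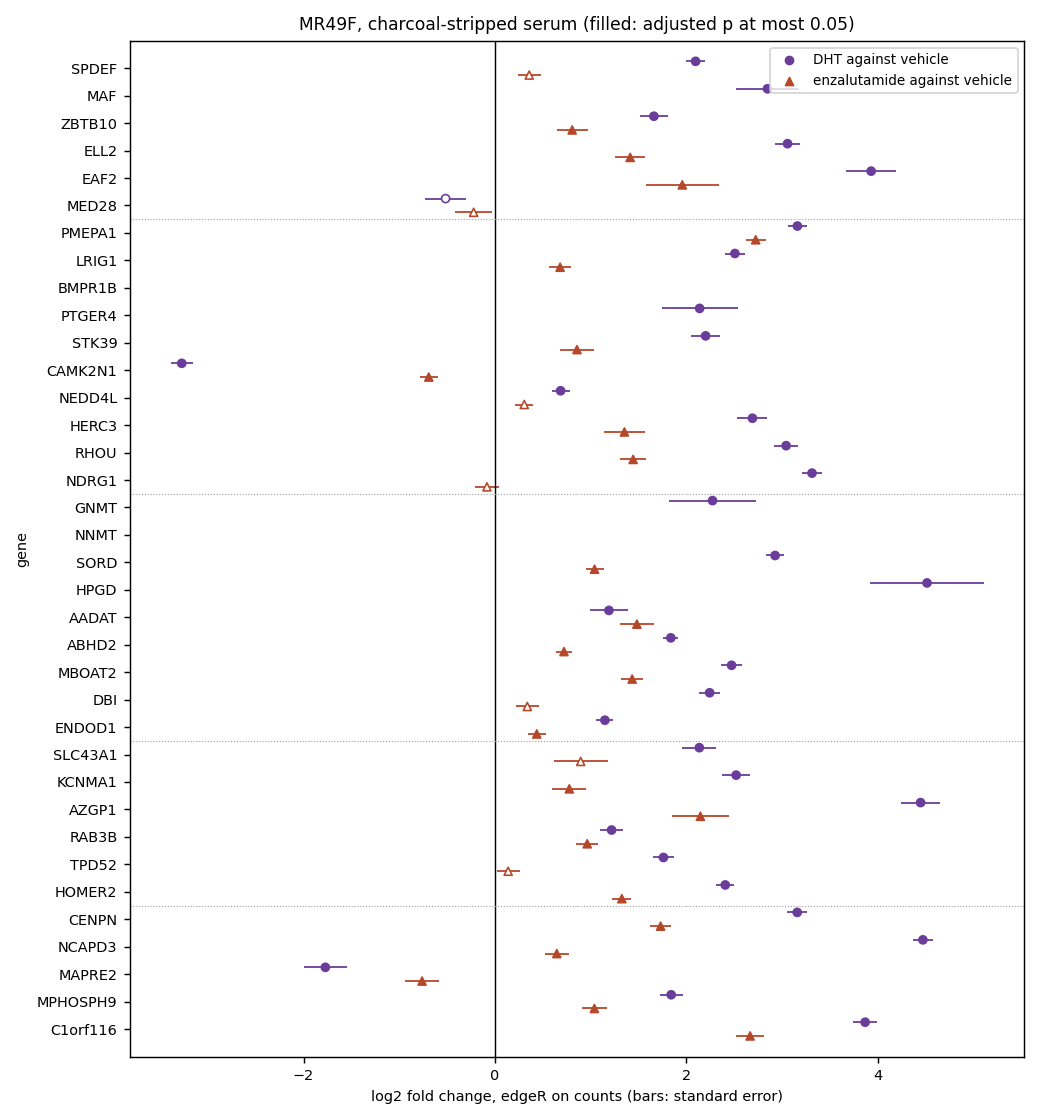
Log2 fold change against the shared vehicle libraries (x axis, edgeR on counts, bars are standard errors) with DHT and with enzalutamide in MR49F cells in charcoal-stripped serum, for each androgen-induced gene (y axis, grouped by role between dotted lines); filled symbols passed an adjusted p of 0.05. DHT lies farther from 0 than enzalutamide for every gene tested with both except AADAT, with PMEPA1 at 3.16 and 2.72 and NDRG1 at 3.31 and -0.08.

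The direction of the enzalutamide response in MR49F cells was compared between serums with an interaction over the 12 libraries concerned. It passed for 32 of 36 genes, against 11.4% of 14178 genes, with 30 more positive in CSS and a median difference of 1.41 against 0.0205 over all genes. Of the genes tested in both serums, 15 fell in FS and rose in CSS, among them C1orf116 (-0.82 and 2.67), ELL2 (-0.53 and 1.41), SORD (-0.38 and 1.04) and KCNMA1, the BK potassium channel (-0.64 and 0.78). By limma on log2(FPKM + 1) the fall in FS did not pass for 7 of the 15, EAF2, STK39, ABHD2, RAB3B, HOMER2, CENPN and MPHOSPH9. In counts the fall was lost in 5 of 6 fits with a library left out for CENPN and RAB3B, in 3 for STK39 and HOMER2, and in 2 for EAF2 and ABHD2. CAMK2N1 rose in FS and fell in CSS (0.64 and -0.69, difference -1.29, SE 0.128). PMEPA1 was at 189 to 195 FPKM in FS with or without the drug and rose from 18.3 to 19.9 up to 145 to 148 in CSS. SPDEF went from 82.7 to 86.6 down to 36.2 to 38.6 FPKM in FS and was at 31.6 to 33.3 without and 34.7 to 40.2 with the drug in CSS, a difference in response of 1.62 (SE 0.117, adjusted p = 9.63e-10, edgeR). The estimates of 7.09 for BMPR1B (SE 2.09), 3.19 for HPGD (SE 0.903) and 1.87 for NNMT (SE 1.32) rest on CSS vehicle libraries with few or 0 reads and are fitted values, not bounds. The first of these was no longer called in 5 of the 6 fits that left out a CSS library each, the second in 3, and the third did not pass (adjusted p = 0.425, edgeR).

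JQ-1 was given to ask how inhibition of BET proteins affects the response to each ligand. Alone, it changed 20 of 28 tested genes, against 46.6% of 11332 genes, with 9 higher and 11 lower and a median of -0.07. SPDEF went from 31.6, 33.3 and 33.3 FPKM with vehicle to 3.76, 3.86 and 3.87 with JQ-1 (-3.04, SE 0.167, adjusted p = 1.29e-20, edgeR). CAMK2N1 fell from 168 to 184 down to 21.1 to 22.2 FPKM (-2.74, SE 0.101). SLC43A1 and AADAT were also called lower, by 2.04 and 1.95 on the log2 scale, but had at most 9 reads in any library with JQ-1. Both passed the filter only through the vehicle group, so their fall adds little to these counts. ELL2 (1.00), MAPRE2 (1.02), MPHOSPH9, a centriolar phosphoprotein (0.84), and MBOAT2, a lysophospholipid acyltransferase (0.80), rose.

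Added to DHT, JQ-1 split the genes. Of 34 tested, 29 differed between DHT with JQ-1 and DHT alone, against 54.7% of 10779 genes, with 8 higher, 21 lower and a median of -0.43 against -0.0007 over all genes. All 6 genes of transport, channels and secretion fell, as did 6 of 9 signalling genes, while 4 of 5 genes of cell division and cytoskeleton rose. Among those that fell, STK39 (-0.25) lost its call in 6 of 6 fits with a library left out, and RAB3B (-0.26) and MAF (-0.57) in 4. AZGP1 was at 51.4, 53.8 and 55.2 FPKM with DHT and 5.39, 6.29 and 6.84 with both (-3.32, SE 0.178, adjusted p = 9.19e-18, edgeR). PMEPA1 went from 177 to 184 down to 29.5, 30.8 and 30.3 FPKM (-2.47, SE 0.0821), CENPN from 157, 158 and 162 to 18.2, 19.5 and 18.0 (-2.52, SE 0.0911) and SLC43A1 from 35.7, 35.9 and 35 to 7.05, 6.65 and 7.13 (-2.45, SE 0.191). AADAT fell to 3.55, 4.49 and 3.84 FPKM, under its vehicle level of 8.89 to 9.05 (-2.04, SE 0.234). EAF2 (-1.74), SPDEF (-1.11), TPD52 (-0.94), HOMER2, a scaffold protein (-0.87), and SORD (-0.75) fell by less. HPGD (-1.13) had 7 to 10 reads per library with both and passed the filter only through DHT alone. It was not called without DHT replicate 3.

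Of the 8 genes that rose, 7 did so from levels that DHT had already raised, and MAPRE2 from a level that DHT had lowered. With JQ-1 alone against vehicle, 6 of the 8 were also called higher: ZBTB10, ABHD2, MBOAT2, DBI, MAPRE2 and MPHOSPH9. Those calls were lost in 3 of 6 fits with a library left out for DBI and in 1 for ZBTB10. For ZBTB10, DBI and MPHOSPH9 the interaction given below was not called in counts. NCAPD3 was at 181, 174 and 173 FPKM with DHT and 463, 473 and 458 with DHT and JQ-1 (1.46, SE 0.067, adjusted p = 8.06e-20, edgeR), against 8.27 to 8.40 with JQ-1 alone. C1orf116 went from 66.8, 67.1 and 67.7 to 147, 150 and 149 FPKM (1.23, SE 0.0738), against 2.07 to 2.15 with JQ-1 alone, and MBOAT2 from 107, 99.1 and 97.9 to 259, 251 and 238 (1.38, SE 0.0801). ABHD2, a lipase of the α/β hydrolase family, went from 217, 209 and 196 to 338, 326 and 320 FPKM (0.80, SE 0.0664). MPHOSPH9 went from 43.8, 44.7 and 42.2 to 60, 61 and 60.3 FPKM (0.57), DBI from 941, 992 and 1108 to 1239, 1326 and 1366 (0.45), and ZBTB10, a zinc finger protein, from 18.6, 17.6 and 16.8 to 23.1, 21.4 and 20.8 (0.29, not called without DHT replicate 3). MAPRE2, which DHT had lowered, was at 12.4, 13.4 and 13.1 FPKM with both against 2.03 to 2.41 with DHT (2.61, SE 0.204), and CAMK2N1 fell further, to 4.22, 4.14 and 4.60 (-1.89, SE 0.237).

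Against JQ-1 alone, DHT with JQ-1 still changed 30 of 32 tested genes, against 22.1% of 10847 genes, with 29 higher, CAMK2N1 lower and a median of 1.79. Of those higher, EAF2, AZGP1, SLC43A1, AADAT and PTGER4 had at most 9 reads in any library with JQ-1 alone. These genes passed the filter only through DHT with JQ-1. C1orf116 (6.33, SE 0.0955), NCAPD3 (5.95, SE 0.0748) and SPDEF (4.04, SE 0.138) had the largest estimates. SPDEF went from 3.76 to 3.87 FPKM with JQ-1 up to 53.6, 59.6 and 56.2 with both, above its vehicle level but below the 120 to 129 with DHT alone. Whether JQ-1 altered the response to DHT was tested as an interaction, which passed for 17 of 34 genes, against 12.3% of 11572 genes. With JQ-1 the response was larger for C1orf116 (2.44, SE 0.201), SPDEF (1.92, SE 0.193), NCAPD3 (1.46, SE 0.141), MBOAT2 (0.57, SE 0.149) and ABHD2 (0.36, SE 0.0921), and less negative for MAPRE2 (1.59, SE 0.258) and CAMK2N1 (0.84, SE 0.282). It was smaller for AZGP1 (-2.54, SE 0.582), MAF (-1.95, SE 0.483), CENPN (-1.80, SE 0.171), EAF2 (-1.70, SE 0.545), PMEPA1 (-1.70, SE 0.145), ELL2 (-1.58, SE 0.19), TPD52 (-0.87, SE 0.164), STK39, a kinase that acts on ion cotransporters (-0.80, SE 0.209), NDRG1 (-0.68, SE 0.133) and LRIG1, a brake on ERBB receptors (-0.38, SE 0.131). The calls of LRIG1, CAMK2N1 and EAF2 were lost in 9, 8 and 7 of 12 fits that left out a library each, across all 4 groups, and that of MBOAT2 without vehicle replicate 1. AZGP1, MAF and EAF2 had at most 9 reads in any vehicle library, so their estimates rest on few reads. Limma on log2(FPKM + 1) called 29 of 36, against 47.7% of 12469 genes. The neuroendocrine markers summed to 34.3 to 34.7 FPKM with JQ-1 and 23.2 to 24.4 with DHT and JQ-1, and their part in these values was not tested.

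Among the promoters printed above, SPDEF and AZGP1, which fell when JQ-1 was added to DHT, and C1orf116, which rose, held CCAAT letters, and MBOAT2, which rose, held none.

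**Figure D4:**
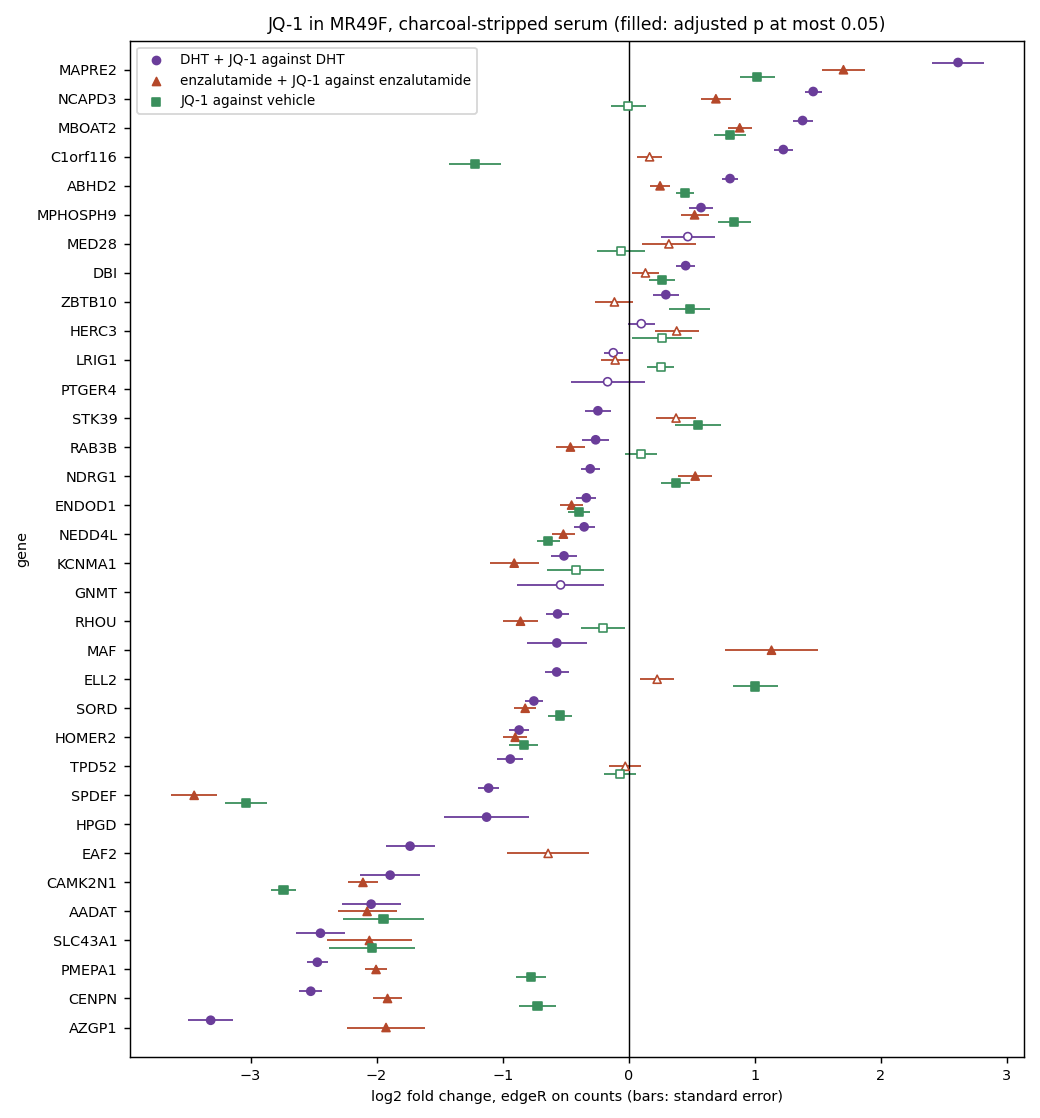
Log2 fold change on adding JQ-1 to DHT, to enzalutamide or to vehicle in MR49F cells in charcoal-stripped serum (x axis, edgeR on counts, bars are standard errors) for each androgen-induced gene tested with DHT (y axis, ordered by that change); filled symbols passed an adjusted p of 0.05. MAPRE2, NCAPD3, MBOAT2 and C1orf116 stand at the top (2.61, 1.46, 1.38 and 1.23) and AZGP1, CENPN, PMEPA1 and SLC43A1 at the bottom (-3.32, -2.52, -2.47 and -2.45).

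Added to enzalutamide, JQ-1 changed 21 of 31 tested genes, against 45.1% of 10863 genes, with 7 higher, 14 lower and a median of -0.11. Of those lower, AZGP1, SLC43A1 and AADAT had at most 7, 11 and 21 reads per library with both. They passed the filter only through enzalutamide alone. MAF, called higher, had at most 8 reads with enzalutamide and passed only through the group with both. Its call was lost in 3 of 6 fits with a library left out. SPDEF fell from 40.2, 37.2 and 34.7 FPKM to 4.07, 3.93 and 3.49 (-3.45, SE 0.185, adjusted p = 3.25e-14, edgeR), the level that JQ-1 gave alone. PMEPA1 fell from 145 to 148 down to 31.5, 32.4 and 30.3 FPKM (-2.00, SE 0.085) and CENPN from 53.9 to 60.0 down to 11.6, 12.5 and 11 (-1.91, SE 0.114). C1orf116 was at 33.0, 32.6 and 30.9 FPKM against 27.7 to 30.1 without JQ-1 (0.16, SE 0.101, adjusted p = 0.191, edgeR), and MBOAT2 rose from 52.7 to 54.8 up to 91.8, 91.8 and 88.6 (0.88, SE 0.0937). Against JQ-1 alone, 17 of 27 tested genes passed with enzalutamide and JQ-1, each of them higher, against 4.5% of 10708 genes. With a library left out 14 to 18 passed. LRIG1, RAB3B and CENPN each lost the call in 4 of 6 such fits, and STK39 in 1. Limma on log2(FPKM + 1) called 28 of 33, against 14.0% of 11747 genes. C1orf116 rose by 4.05 (SE 0.13), MBOAT2 by 1.51 (SE 0.0884), PMEPA1 by 1.49 (SE 0.107) and HERC3, a ubiquitin ligase, by 1.48 (SE 0.185).

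The interaction of JQ-1 with enzalutamide passed for 3 of 31 genes, against 0.895% of 11625 genes: C1orf116 (1.39, SE 0.228), PMEPA1 (-1.23, SE 0.144) and CENPN (-1.19, SE 0.183). It passed for 5 genes without enzalutamide replicate 1, for 6 without enzalutamide replicate 3, and for 21 of 35 by limma on log2(FPKM + 1), against 18.5% of 12454 genes. The interactions of JQ-1 with DHT, which share the vehicle and JQ-1 libraries, were 2.44, -1.70 and -1.80 for these genes. Mean FPKM with JQ-1 was higher for DHT than for enzalutamide in 32 of the 36 genes, the exceptions being MED28, PMEPA1, CAMK2N1 and MAPRE2. PMEPA1 was at 29.5 to 30.8 FPKM with DHT and JQ-1 and at 30.3 to 32.4 with enzalutamide and JQ-1, so that the groups overlapped.

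Over the 10 conditions, mean FPKM was highest with DHT in CSS for 15 of the 36 genes, with DHT and JQ-1 for 7 (HERC3, ABHD2, MBOAT2, DBI, NCAPD3, MPHOSPH9 and C1orf116) and with vehicle in V16D for 9 (MAF, ZBTB10, BMPR1B, STK39, GNMT, NNMT, SLC43A1, AZGP1 and RAB3B). It was lowest with JQ-1 alone for 17 and with CSS vehicle for 12. FPKM summed over all genes differed between the experiments. It was 384910 to 423932 per library in CSS, 509791 to 561810 in V16D and 611911 to 858576 in MR49F in FS. These orders therefore mix treatment with line, serum and experiment, which cannot be told apart here. KCNMA1 was at 14.5 to 15 FPKM with vehicle in V16D, at 10 to 11.4 in MR49F, and in CSS at 4.23 to 4.58 with vehicle, 25.5 to 26.1 with DHT, 7.75 to 9.12 with enzalutamide and 16.7 to 17.9 with DHT and JQ-1. RHOU, a small GTPase, was at 8.11 to 8.79 FPKM in CSS vehicle, 88.5 to 90.6 with DHT, 30.3 to 31.4 with enzalutamide and 51.4 to 53.4 with DHT and JQ-1. PTGER4, the prostaglandin E2 receptor EP4, stayed under 5 FPKM throughout, from 0.503 to 0.728 in CSS vehicle to 4.09 to 4.58 with DHT. LRIG1 (12.5 to 12.8 FPKM in CSS vehicle, 88.2 to 92.2 with DHT and 78.2 to 80.2 with DHT and JQ-1) and HERC3 (5.18 to 5.42, 31.3 to 33.3 and 33.7 to 35.1) were not called in counts when JQ-1 was added to DHT (-0.12 and 0.10, adjusted p = 0.175 and 0.449, edgeR). In FPKM, however, LRIG1 was lower with JQ-1 in every library and HERC3 higher. Limma on log2(FPKM + 1) called 8 of the 10 signalling genes lower and 0 higher in this comparison. ENDOD1, which holds an endonuclease-like domain, had the lowest estimate among the enzymes tested with DHT (1.15, SE 0.0893), from 55.7 to 57.0 FPKM up to a highest of 123.

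A further list of 79 androgen response genes, which holds none of the 36, was read in the same fits. With enzalutamide 73 of 78 tested genes fell in V16D (median -0.33, with 37.5% of all genes called), and 30 of 79 fell in MR49F in FS (median -0.16, 8.48% of all). In CSS, 62 of 76 rose with DHT (median 1.05, 37.5% of all), and 21 of 70 rose with enzalutamide (median 0.31, 7.26% of all). When JQ-1 was added to DHT 24 rose and 27 fell of 76, with 54.7% of all genes called. INPP4B, a lipid phosphatase, had the largest estimate of the list with DHT (4.96, SE 0.481) and fell when JQ-1 was added (-4.12, SE 0.416).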

How the data were processed

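Strand-specific poly(A) libraries of the 30 samples were sequenced as single-end reads. Per the labels and the study's methods, the authors aligned reads to hg19 with TopHat2 2.0.9, deposited raw counts per gene symbol from HTSeq, and deposited FPKM per transcript from Cufflinks 2.1.1. Reads assigned to no gene (20.2% to 25.31% of tallied reads in full serum, 92.2% to 94.78% in charcoal-stripped serum) were left out of library sizes. FPKM was summed over the transcripts of a symbol and used for levels, and counts were used for tests. Fewer reads on genes, not fewer reads in all, stand behind the charcoal-stripped serum counts. Replicate variation, as the square root of the common dispersion in edgeR, was 7.28% in the DHT comparison. It ranged from 4.33% to 8.03% over the comparisons within charcoal-stripped serum. With enzalutamide in full serum it was 1.83% in V16D and 5.25% in MR49F. Intervals of counting error are not given since replicates were available.

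Each comparison was fitted on its own groups with edgeR 4.0.16 (TMM, filterByExpr at 10 counts per library and 15 over all libraries, quasi-likelihood test) in R 4.3.3. Interactions were contrasts of 4 groups in a group-means fit. P-values were adjusted by Benjamini-Hochberg over all genes tested, and a gene was called at an adjusted p of at most 0.05. Fold changes are log2 of the first over the second group, and SE is the size of the estimate over the square root of its F statistic. Limma 3.58.1 on log2(FPKM + 1) and DESeq2 1.42.0 were alternatives, and the scripts were tested on simulated data. Figures were drawn with matplotlib 3.10.9 in Python 3.11.15.

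The genes and lists were chosen with earlier results of these data known. Values in every sample were given for the 6 called genes with the largest fold change, without overlap between groups and at 5 CPM or more, in the comparisons of enzalutamide in V16D, of DHT and of enzalutamide in charcoal-stripped serum, and of DHT with JQ-1 against DHT, and for genes called against the majority. Other genes are given by counts, ranges or estimates, and up to 5 of a further list per comparison. Genes given sample by sample outside that rule were chosen after their values were seen. Promoter windows are RefSeq sequences of GRCh38.p14, a different build from that of the reads, and were used only as sequence. Values of some further genes are not reported here.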

Additional observations from a re-analysis of the deposited data

Results flagged for a closer look

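Results are given here because the effect of a treatment differed between lines, serums or JQ-1 backgrounds by a test of the difference itself. With groups of 3, no test for a single distant sample was made. Between the lines in full serum, the response to enzalutamide differed for 30 of 36 genes (6.95% of all genes), with the largest differences for NNMT (2.68), PMEPA1 (2.33) and C1orf116 (1.94). The response to DHT differed with JQ-1 for 17 of 34 tested genes (12.3% of all, and 29 of 36 by limma on FPKM, with 47.7% of all), with AZGP1 (-2.54), C1orf116 (2.44) and MAF (-1.95) at the head. AZGP1 had only 5 to 9 reads per library with vehicle and 2 to 6 with JQ-1, and MAF 3 to 7 with vehicle. The response to enzalutamide in charcoal-stripped serum differed with JQ-1 for 3 of 31 (0.895% of all, and 21 of 35 by limma on FPKM, with 18.5% of all), C1orf116 (1.39), PMEPA1 (-1.23) and CENPN (-1.19). The response of MR49F cells to enzalutamide differed between serums for 32 of 36 (11.4% of all), with BMPR1B (7.09, resting on 0 reads with vehicle), C1orf116 (3.54) and HPGD (3.19) at the head. All are differences of log2 fold changes from edgeR.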

How the results depend on the processing

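Counts of called genes kept within 1.5 times of the main count in each comparison except as given here. With limma on log2(FPKM + 1), 15 genes were called for enzalutamide in MR49F in full serum. For enzalutamide with JQ-1 against JQ-1, 28 were called under all 4 FPKM settings (pseudocount 1, pseudocount 0.1, no filter, and scaling to the sample median, the last chosen after seeing the data). For DHT by JQ-1 these settings gave 29, 27, 28 and 29, and for enzalutamide by JQ-1 21, 19, 19 and 20. The latter gave 5 with no filter on counts, 5 with a replicate block and 6 with all groups in a single fit, and 3 to 6 with a library left out. Enzalutamide in MR49F in full serum gave 16 to 30 with a library left out. The cause was not tested.

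Signs turned only under limma on FPKM, in that order of settings where present: HPGD by line -0.560, -0.654, -0.560 and -0.590; HERC3 with JQ-1 -0.128, -0.151 and -0.128; RAB3B with JQ-1 -0.114, -0.132 and -0.114; HERC3 for DHT by JQ-1 0.220, 0.245, 0.220 and 0.219; AADAT for DHT by JQ-1 0.340, 0.767 and 0.326; MAF for enzalutamide by JQ-1 0.271 and 0.286; GNMT by serum 0.727, 1.139, 0.727 and 0.756. Of 4446 single-gene values under other settings 4093 kept direction and side of the threshold, and of 3774 with a library left out 3605 did. The share of higher calls among all genes moved by over 10 percentage points under limma on FPKM in 9 comparisons. It rose for enzalutamide in full serum (V16D 48.6% to 58.9%, MR49F 45.5% to 56.5%) and fell for DHT (51.8% to 40%), enzalutamide in charcoal-stripped serum (60.4% to 49.8%), DHT against enzalutamide (53% to 35.9%), DHT and enzalutamide each with JQ-1 against JQ-1 (55.6% to 31.8% and 70.1% to 43.4%), enzalutamide by JQ-1 (54.8% to 40.3%) and serum (66.7% to 43.5%). With median-scaled FPKM that of line by enzalutamide also moved (60.3% to 49.1%).

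Same-numbered replicates did not deviate together (mean correlation 0.0301, -0.0175 and 0.0135 in MR49F full serum, V16D full serum and charcoal-stripped serum), so the numbers were not taken to pair samples. Apart from the count of 5 above, the replicate block moved no count of calls by over 1.5 times. Few reads on genes in charcoal-stripped serum limit genes such as BMPR1B, NNMT, HPGD, GNMT, PTGER4, MAF, EAF2 and AZGP1.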

Other observations

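A list of 15 genes for transcription factors and cofactors was read in the same fits. With DHT in charcoal-stripped serum 2 of 14 tested rose and 8 fell, with 37.5% of all genes called. NCOA3, a p160 coactivator, fell by 1.32, HOXB13, a prostate homeobox factor, by 1.11 and the pioneer factor GATA2 by 0.90 on the log2 scale. With JQ-1 added to DHT, 5 of 15 rose and 3 fell, with 54.7% of all genes called, and NCOA3 rose by 1.35. In V16D cells in full serum with enzalutamide 6 of 15 rose and 4 fell, with a median of 0.02 and 37.5% of all genes called. NCOA3 rose by 0.62, GATA2 by 0.39 and HOXB13 by 0.37, while NCOR1 fell (-0.28). Values are log2 fold changes from edgeR with adjusted p at most 0.05.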
